A study of Mus musculus with 15 samples.

Results

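Id2, Id3, Zbtb16, Tbx21, Eomes, Ahr, Maf, Rora, Bcl6 and Prdm1 encode transcription regulators best known from effector, memory and innate-like lymphocytes. These 10 genes were taken by symbol from a deposited count table of 53762 genes, and they are described across 5 groups of mature mouse thymocytes. All 10 were among the 16550 genes that passed the edgeR filter on low counts.

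The cells were sorted from thymi of C57BL/6 mixed bone marrow chimeras, 3 libraries to a group, through one surface gate of CD44lo, TCRbhi, CD24lo and CD69lo. Thpok-RKF+ cells were CD4+CD8+ and CD45.2+, and carried Thpok fl/fl, Runx3 fl/dYFP, Cd4-Cre and Thpok-RKF. Thpok-RKF- cells were CD45.2+ with the same floxed alleles and Cd4-Cre but no Thpok-RKF, and came as CD4+CD8+ cells and as CD8 single-positive (SP) cells. All 3 mutant groups developed in irradiated CD45.1+ B2m-/- hosts, which lack a chain of MHC class I. Wild-type (WT) CD4 SP cells were CD45.1+CD45.2+ competitors from B2m-/- hosts. WT CD8 SP cells were CD45.1+CD45.2+ competitors from I-Ab-/- hosts, which lack a chain of MHC class II, so host and lineage cannot be told apart in any comparison with them. Cd4-Cre acts from the CD4+CD8+ stage of thymic development onward. Both floxed genes are shared by the mutant groups, so neither deletion was measured alone, and the labels do not explain what Thpok-RKF is. Whether replicates are separate animals is not stated, so a p-value here covers the spread of these samples alone, which could be technical.

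Thpok and Runx3 are the opposing regulators of the helper and cytotoxic fates of thymocytes, and the 10 genes act beside and after that choice. Id2 and Id3 are inhibitors that bind E proteins and keep them off DNA; T cell receptor signals induce Id3, and Id2 is higher in differentiated cytotoxic and innate cells. Tbx21 (encoding T-bet) and Eomes are T-box factors of type 1 and cytotoxic cells. Zbtb16 encodes PLZF, the defining factor of natural killer T (NKT) cells, and Maf acts in helper and innate-like cells that make cytokines. Ahr is a ligand-activated receptor, Rora a nuclear receptor of innate lymphoid and type 17 cells, and Bcl6 and Prdm1 (encoding Blimp-1) are repressors that oppose each other in helper T cells.

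The libraries held 37311823 to 48607260 counts on genes. Levels are in CPM, with library sizes set by TMM normalisation, and are given for replicates 1, 2 and 3 in that order. Zbtb7b, the gene of Thpok, stood at 768 to 823 CPM in Thpok-RKF+ libraries, 1.67 to 2.95 CPM in the Thpok-RKF- libraries of both gates, 27.4 to 79.2 CPM in WT CD4 SP libraries and at most 0.376 CPM in WT CD8 SP libraries. Runx3 averaged 305 ± 49.1 CPM in Thpok-RKF+, 279 ± 14.7 CPM in Thpok-RKF- CD4+CD8+, 267 ± 34.4 CPM in Thpok-RKF- CD8 SP, 28.8 ± 4.95 CPM in WT CD4 SP and 206 ± 13.2 CPM in WT CD8 SP cells (SD, n = 3 each). Over WT CD4 SP cells it was higher by 3.41 ± 0.16, 3.28 ± 0.16 and 3.21 ± 0.16 log2 units in those 3 mutant groups (edgeR adjusted p at most 8.33e-09), and it also passed as higher in Thpok-RKF+ than in WT CD8 SP cells. Counts of a whole gene do not check whether a floxed stretch was deleted. Libraries numbered 1 stood apart: 1543 genes passed a test for number 1 with group in the model, and Jun was 3.12 log2 units higher in them (adjusted p = 0.00318). The summed level of 10 myeloid markers was 61.4 CPM in Thpok-RKF+ replicate 1 and 40.4 CPM in WT CD4 SP replicate 1, and at most 9.21 CPM elsewhere. The summed level of 8 B cell markers ran over 363 to 759.9 CPM in Thpok-RKF+, 446 to 698 CPM in Thpok-RKF- CD4+CD8+, 724 to 993 CPM in Thpok-RKF- CD8 SP, 544 to 809 CPM in WT CD4 SP and 843 to 1190.0 CPM in WT CD8 SP libraries, most of it from Ighm. Among them Cd79b, a chain of the B cell receptor complex, averaged 8.44, 5.93, 6.16, 1.24 and 41.0 CPM in these groups, and Ighd, an immunoglobulin heavy chain, averaged 4.91, 0.464, 0.320, 0.216 and 45.3 CPM. Both were lower by edgeR's test in each of the other 4 groups than in WT CD8 SP cells (adjusted p at most 0.00588), and Ighd was higher in Thpok-RKF+ than in Thpok-RKF- CD4+CD8+ cells (3.40 ± 0.73, adjusted p = 0.0432). Their part in the results was not tested. The B cell marker Ms4a1 and the NK cell marker Ncr1 had no counts in any library. All 6 NK cell markers summed to 0.617 to 2.28 CPM in WT CD4 SP and 3.38 to 4.64 CPM in WT CD8 SP libraries. In mutant libraries the sum was 1.02 to 2.77 CPM. By edgeR, Gzma and Klrb1c were lower in WT CD4 SP than in WT CD8 SP cells. Gzma was higher in both Thpok-RKF- groups than in WT CD4 SP cells. Klrb1c was lower in Thpok-RKF- CD4+CD8+ than in WT CD8 SP cells. The part of NK cells was not tested. The summed level of 10 T cell genes of the gate was at least 7563 CPM in every library.

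Some differences among these regulators lay between mutant and WT cells, some followed the CD4 and CD8 gates and some set WT CD8 SP cells apart. Id3, which restrains E proteins, was lower and Rora, the nuclear receptor gene, was higher in each mutant group than in each WT group. Compared with WT CD8 SP cells, Eomes was lower and Prdm1 higher in every other group. Ahr was lower than in WT CD8 SP cells in all but Thpok-RKF- CD4+CD8+ cells, where it did not pass. Eomes, Ahr and Prdm1 did not pass between Thpok-RKF- CD8 SP and WT CD4 SP cells. Id2 was higher in both mutant CD4+CD8+ groups than in Thpok-RKF- CD8 SP cells and in WT CD4 SP cells. None of the 10 passed the edgeR test between Thpok-RKF+ and Thpok-RKF- cells of the CD4+CD8+ gate, where Tbx21 had the largest fitted difference.

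A gene is said to have changed where the edgeR quasi-likelihood test gave a Benjamini-Hochberg adjusted p under 0.05 over all 16550 genes. Thpok-RKF- CD8 SP cells differed from WT CD8 SP cells in 8 of the 10 regulators, against 18.4% of all genes tested; 3 were higher, where 7.78% of all genes were, and 5 were lower, where 10.6% were. In Thpok-RKF- CD4+CD8+ cells this number was 6 of the 10 regulators, against 12.1% of all genes tested; 3 were higher, where 5.11% of all genes were, and 3 were lower, where 7.04% were. In Thpok-RKF+ cells the same control gave 5 of the 10 regulators, against 11.1% of all genes tested; 2 were higher, where 4.97% of all genes were, and 3 were lower, where 6.11% were. These 3 comparisons share the WT CD8 SP libraries.

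With WT CD4 SP cells as the shared control, Thpok-RKF- CD8 SP cells differed in 2 of the 10 regulators, against 17.7% of all genes tested; 1 was higher, where 8.91% of all genes were, and 1 was lower, where 8.75% were. Thpok-RKF- CD4+CD8+ cells differed in 4 of the 10 regulators, against 17.6% of all genes tested; 2 were higher, where 9.15% of all genes were, and 2 were lower, where 8.42% were. Thpok-RKF+ cells differed in 4 of the 10 regulators, against 7.26% of all genes tested; 2 were higher, where 4.36% of all genes were, and 2 were lower, where 2.91% were. The WT CD4 SP cells differed from WT CD8 SP cells in 4 of the 10 regulators, against 18% of all genes tested; 1 was higher, where 7.72% of all genes were, and 3 were lower, where 10.3% were.

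Within the mutant cells, Thpok-RKF- CD4+CD8+ cells differed from Thpok-RKF- CD8 SP cells in 3 of the 10 regulators, against 2.44% of all genes tested; 2 were higher, where 1.72% of all genes were, and 1 was lower, where 0.719% were. Set against Thpok-RKF- CD8 SP cells, Thpok-RKF+ cells differed in 3 of the 10 regulators, against 5.52% of all genes tested; 2 were higher, where 3.4% of all genes were, and 1 was lower, where 2.11% were. Thpok-RKF+ cells differed from Thpok-RKF- CD4+CD8+ cells in 0 of the 10 regulators, against 0.961% of all genes tested; 0 were higher, where 0.586% of all genes were, and 0 were lower, where 0.375% were. In this last comparison 2 of the 10 had an unadjusted p under 0.05 by edgeR, and DESeq2 and limma-trend each called 1, Tbx21. Without the libraries numbered 1, edgeR called 2, Tbx21 and Maf. The median log2 fold change of the 10 there was -0.17, against 0.01 over all genes tested.

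**Figure D1:**
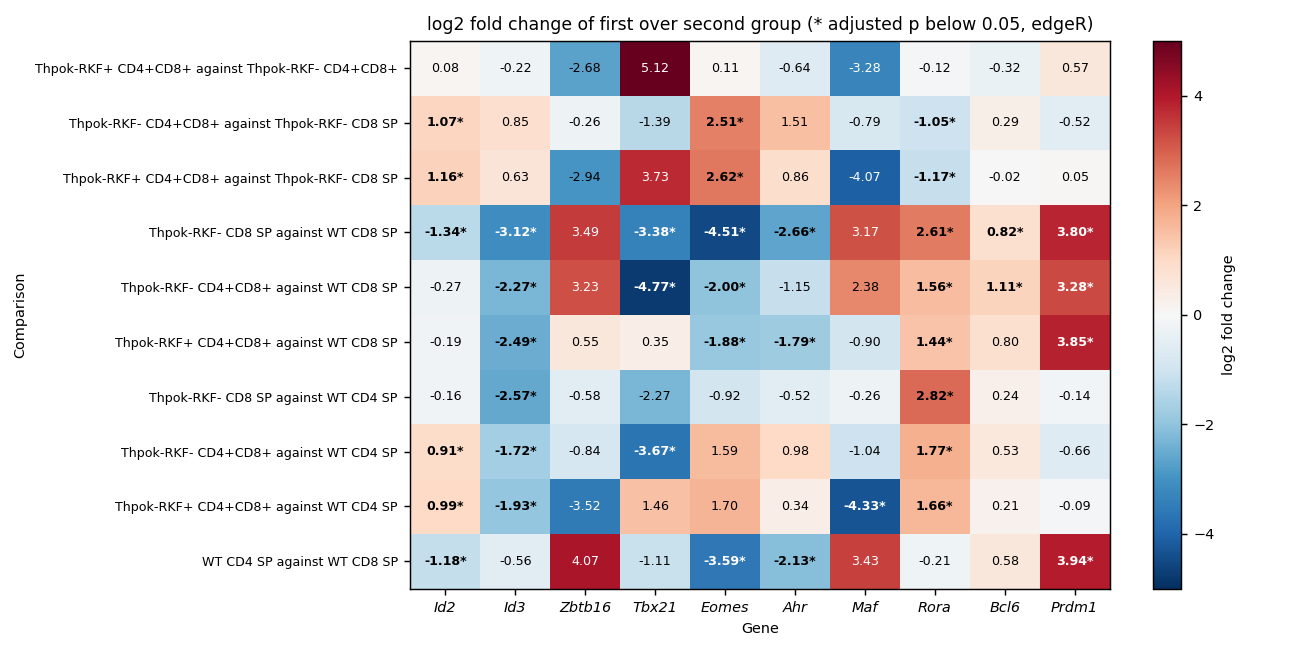
Fitted log2 fold change of the 10 regulators in 10 comparisons (first group over second), red for higher and blue for lower in the first group, with an asterisk where the edgeR adjusted p was under 0.05. Rora and Id3 carry an asterisk in all 6 comparisons of a mutant with a WT group, and no regulator carries one in Thpok-RKF+ over Thpok-RKF- CD4+CD8+ cells.

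Id2, Eomes and Rora were the 3 regulators that changed between the CD4+CD8+ and CD8 SP gates of Thpok-RKF- cells, and their promoters are shown for that reason. The RefSeq table of mouse promoters (GRCm38.p6, 250 bases before to 50 after the start) held entries for 7 of the 10 genes. Each was searched on both strands for CANNTG, the E box that E proteins bind; TGTGGT, a core that Runx factors bind; AGATAA, a site of GATA factors; and AGGTGTGA, a site of T-box factors. The sequences run 5′ to 3′ along the strand of the gene, with E boxes in capitals. Id2 lies at chr12:25096043-25096342 on the minus strand, Eomes at chr9:118477939-118478238 on the plus strand and Rora at chr9:68653536-68653835 on the plus strand.
Id2: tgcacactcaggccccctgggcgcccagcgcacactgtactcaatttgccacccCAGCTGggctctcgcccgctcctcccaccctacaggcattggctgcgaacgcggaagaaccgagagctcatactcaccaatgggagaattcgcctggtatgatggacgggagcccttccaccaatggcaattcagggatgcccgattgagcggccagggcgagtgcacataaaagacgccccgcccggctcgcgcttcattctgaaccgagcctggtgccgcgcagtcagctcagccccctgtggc
Eomes: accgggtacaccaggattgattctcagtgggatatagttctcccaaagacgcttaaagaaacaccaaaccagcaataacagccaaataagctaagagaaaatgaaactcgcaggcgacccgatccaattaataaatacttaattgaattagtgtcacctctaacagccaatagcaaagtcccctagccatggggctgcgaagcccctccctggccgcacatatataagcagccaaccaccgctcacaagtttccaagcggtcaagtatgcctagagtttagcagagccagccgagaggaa
Rora: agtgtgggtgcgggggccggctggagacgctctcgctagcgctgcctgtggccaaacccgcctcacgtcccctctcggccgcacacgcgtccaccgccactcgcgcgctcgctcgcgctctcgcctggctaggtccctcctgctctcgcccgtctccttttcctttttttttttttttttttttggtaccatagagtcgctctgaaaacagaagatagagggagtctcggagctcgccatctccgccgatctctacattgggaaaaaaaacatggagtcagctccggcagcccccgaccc
The Id2 promoter held 1 E box, and those of Eomes and Rora held none of the 4 motifs in this window. Tbx21 and Prdm1 held 2 E boxes each, 1 of the 2 promoters of Bcl6 held 1, and Id3 had none. The other 3 motifs were in none of the 7 genes' promoters, so no matches of different motifs overlapped. Of 32851 promoters of the same length, 72.3% held CANNTG, 16.8% TGTGGT, 11.2% AGATAA and 1.28% AGGTGTGA. These are matches of letters only.

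Id2 had 148, 183 and 153 CPM in Thpok-RKF+ libraries and 141, 167 and 149.9 CPM in Thpok-RKF- CD4+CD8+ libraries. It had 89.9, 62.8 and 64.9 CPM in Thpok-RKF- CD8 SP libraries, 77.8, 70.3 and 95.6 CPM in WT CD4 SP libraries and 156, 199 and 197 CPM in WT CD8 SP libraries. Both CD4+CD8+ groups and the WT CD8 SP cells overlapped one another and lay wholly above the other groups, which overlapped each other. Id2 was higher in Thpok-RKF- CD4+CD8+ than in Thpok-RKF- CD8 SP cells by 1.07 ± 0.16 on the log2 scale (SE, n = 3 per group; edgeR adjusted p = 0.00183). Thpok-RKF+ cells were higher than Thpok-RKF- CD8 SP cells by 1.16 ± 0.16 (adjusted p = 0.00061). In a bulk sample, less RNA per cell and fewer cells that carry the RNA cannot be told apart.

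Against WT CD4 SP cells, Id2 was higher in Thpok-RKF+ cells (0.99 ± 0.16, adjusted p = 0.00135) and in Thpok-RKF- CD4+CD8+ cells (0.91 ± 0.16, adjusted p = 0.00231). Against WT CD8 SP cells it was lower in Thpok-RKF- CD8 SP cells (-1.34 ± 0.17, adjusted p = 4.4e-05) and in WT CD4 SP cells (-1.18 ± 0.16, adjusted p = 0.000185). The differences from WT CD8 SP cells were -0.19 ± 0.16 in Thpok-RKF+ and -0.27 ± 0.16 in Thpok-RKF- CD4+CD8+ cells, and neither passed (adjusted p = 0.58 and 0.336). Between Thpok-RKF+ and Thpok-RKF- CD4+CD8+ cells it was 0.08 ± 0.16 (adjusted p = 0.867). Every call of Id2 held with any 1 library left out and under every other alternative run, except that both calls against WT CD4 SP cells ended where a 2-fold change was also required.

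Id3 had the highest mean level of the 10 over all libraries. It had 51.6, 128 and 117 CPM in Thpok-RKF+ libraries, 75.6, 135 and 135 CPM in Thpok-RKF- CD4+CD8+ libraries and 33.1, 78.9 and 79.7 CPM in Thpok-RKF- CD8 SP libraries. It had 279.7, 426 and 430.2 CPM in WT CD4 SP libraries and 297, 682 and 690.1 CPM in WT CD8 SP libraries. Every mutant library lay below every WT library.

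Id3 fell in all 6 comparisons of a mutant with a WT group. In Thpok-RKF- CD8 SP cells the log2 change was -3.12 ± 0.44 against WT CD8 SP cells and -2.57 ± 0.43 against WT CD4 SP cells (adjusted p = 0.000147 and 0.000869). Thpok-RKF+ cells had -2.49 ± 0.43 and -1.93 ± 0.42 against the same groups (adjusted p = 0.00137 and 0.0101). Thpok-RKF- CD4+CD8+ cells had -2.27 ± 0.42 and -1.72 ± 0.42 (adjusted p = 0.00251 and 0.0125). Leaving out Thpok-RKF- CD4+CD8+ replicate 1 ended the last call (-1.49, adjusted p = 0.0553).

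Id3 was the one regulator of the 10 that passed the test for library number. Replicate 1 was the lowest in 5 of 5 groups, by -1.02 ± 0.09 log2 units with group in the model (adjusted p = 0.000219). Between Thpok-RKF+ and Thpok-RKF- CD4+CD8+ cells Id3 differed by -0.22 ± 0.40 (edgeR adjusted p = 0.861). It did not pass there without the libraries numbered 1 either. The other differences of Id3 among the WT groups or among the mutant groups passed once the libraries numbered 1 were left out. WT CD4 SP cells differed from WT CD8 SP cells by -0.56 ± 0.40 (adjusted p = 0.397), and by -0.65 without the libraries numbered 1 (adjusted p = 0.000564). Thpok-RKF- CD4+CD8+ cells differed from Thpok-RKF- CD8 SP cells by 0.85 ± 0.41 (adjusted p = 0.476), and by 0.77 without them (adjusted p = 0.000927). Between Thpok-RKF+ and Thpok-RKF- CD8 SP cells the difference was 0.63 ± 0.41 (adjusted p = 0.471), and 0.64 without them (adjusted p = 0.0011).

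Of 7 genes for E proteins, their relatives and other Id proteins, 6 were tested, and only Tcf3 and Tal1 changed in any comparison of 2 groups. Tcf3, the gene of the E proteins E12 and E47, averaged 313 ± 45.2 CPM in Thpok-RKF+ cells, 301 ± 11.3 in Thpok-RKF- CD4+CD8+ cells and 329 ± 32.8 in Thpok-RKF- CD8 SP cells, against 238 ± 33.1 in WT CD4 SP cells and 293 ± 7.26 in WT CD8 SP cells (SD, n = 3). It was higher in Thpok-RKF- CD8 SP than in WT CD4 SP cells (0.47 ± 0.12, adjusted p = 0.0186). Tal1, a partner of E proteins, had 0.178 to 0.377 CPM in Thpok-RKF- CD4+CD8+ libraries and 0.111 to 0.238 CPM in Thpok-RKF- CD8 SP libraries, and no counts in the other 3 groups.

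**Figure D2:**
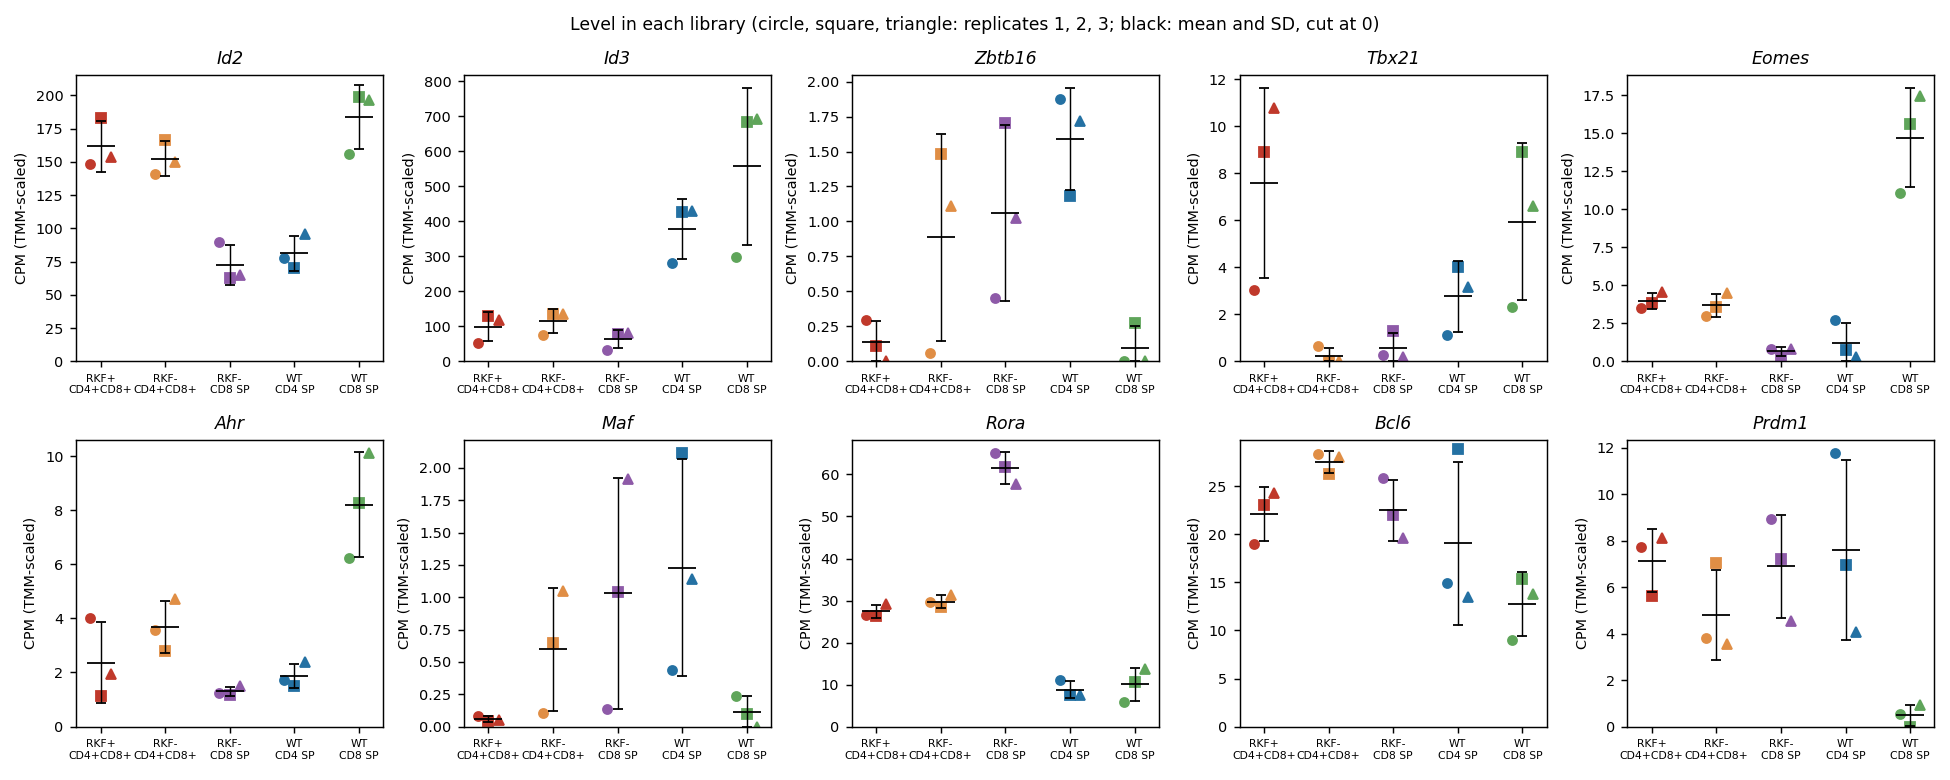
Level of each regulator in CPM with TMM-scaled library sizes on linear axes, in the 5 groups, with a point for each replicate and the mean and SD. Every Rora point of Thpok-RKF- CD8 SP cells lies above every other Rora point, at 57.6 to 65.1 CPM, and every Id3 point of a mutant group lies below every WT point.

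Tbx21 had 3.05, 8.92 and 10.8 CPM in Thpok-RKF+ libraries (144, 413 and 455 counts), against 0.631, 0 and 0 CPM in Thpok-RKF- CD4+CD8+ libraries (31, 0 and 0 counts). A count of 0 allows up to 0.0665 and 0.0666 CPM in these libraries, by counting error alone. Tbx21 had 0.247, 1.28 and 0.178 CPM in Thpok-RKF- CD8 SP libraries, 1.10, 3.99 and 3.18 CPM in WT CD4 SP libraries and 2.31, 8.91 and 6.60 CPM in WT CD8 SP libraries. Each Thpok-RKF+ library lay above each Thpok-RKF- library of both gates, while the Thpok-RKF+ libraries overlapped both WT groups.

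In Thpok-RKF+ over Thpok-RKF- CD4+CD8+ cells the log2 fold change of Tbx21 was 5.12 ± 1.22 (edgeR adjusted p = 0.064). Its adjusted p was 0.00587 by DESeq2, 0.000158 with no filter on low counts, 0.0466 with a stricter filter and 0.0155 when Thpok-RKF+ replicate 1 was left out. Leaving out Thpok-RKF- CD4+CD8+ replicate 1 gave 0.0149, when both remaining libraries of that group were at 0, and the 6 fits with a library left out spanned 0.0149 to 0.208. Against Thpok-RKF- CD8 SP cells the change in Thpok-RKF+ cells was 3.73 ± 1.12 (adjusted p = 0.0711), with 0.0491 by DESeq2, 0.00136 with no filter and 0.0357 when Thpok-RKF+ replicate 1 was left out.

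Tbx21 was lower in Thpok-RKF- CD4+CD8+ cells than in WT CD8 SP cells (-4.77 ± 1.21, adjusted p = 0.0176). This call was lost without WT CD8 SP replicate 2 or Thpok-RKF- CD4+CD8+ replicate 2 or 3 (adjusted p = 0.062, 0.0575 and 0.0582). It was lower in Thpok-RKF- CD4+CD8+ than in WT CD4 SP cells (-3.67 ± 1.16, adjusted p = 0.0427), a call lost without WT CD4 SP replicate 2 or 3 or Thpok-RKF- CD4+CD8+ replicate 2 or 3 (adjusted p = 0.086, 0.0912, 0.112 and 0.112). It was lower in Thpok-RKF- CD8 SP than in WT CD8 SP cells (-3.38 ± 1.11, adjusted p = 0.0468), a call lost without WT CD8 SP replicate 2 or 3 or Thpok-RKF- CD8 SP replicate 1 or 3 (adjusted p = 0.146, 0.108, 0.156 and 0.155). With Thpok-RKF- CD4+CD8+ replicate 1 left out, the first 2 comparisons set a group with no counts against WT cells, and no fold is given. Thpok-RKF+ cells differed by 0.35 ± 0.99 from WT CD8 SP cells and by 1.46 ± 1.01 from WT CD4 SP cells (adjusted p = 0.901 and 0.468).

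Eomes, the related T-box gene, had 3.51, 3.87 and 4.57 CPM in Thpok-RKF+ libraries and 2.99, 3.59 and 4.47 CPM in Thpok-RKF- CD4+CD8+ libraries. It had 0.831, 0.303 and 0.803 CPM in Thpok-RKF- CD8 SP libraries, 2.70, 0.724 and 0.252 CPM in WT CD4 SP libraries and 11.1, 15.6 and 17.4 CPM in WT CD8 SP libraries. Every WT CD8 SP library lay above every other library, both CD4+CD8+ groups overlapped in the middle, and WT CD4 SP replicate 1 stood above the other replicates of its group.

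Eomes was lower in Thpok-RKF- CD8 SP than in WT CD8 SP cells (-4.51 ± 0.66, adjusted p = 0.000204) and lower in WT CD4 SP than in WT CD8 SP cells (-3.59 ± 0.62, adjusted p = 0.00112). Without WT CD4 SP replicate 1, a library with high myeloid markers, the WT value was -4.86 (adjusted p = 5.38e-05), and the part of myeloid cells in it was not tested. Eomes was higher in Thpok-RKF+ than in Thpok-RKF- CD8 SP cells (2.62 ± 0.62, adjusted p = 0.0214) and higher in Thpok-RKF- CD4+CD8+ than in Thpok-RKF- CD8 SP cells (2.51 ± 0.61, adjusted p = 0.0453). Between Thpok-RKF+ and Thpok-RKF- CD4+CD8+ cells the difference was 0.11 ± 0.56 (adjusted p = 0.961).

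The smaller calls of Eomes were lost in fits with fewer libraries. The call between both gates of Thpok-RKF- cells was lost without any 1 of its 6 libraries (adjusted p 0.0787 to 0.203), with the log2 fold change at 2.18 to 2.73 over these fits. In Thpok-RKF+ against WT CD8 SP cells (-1.88 ± 0.58, adjusted p = 0.0497) it was also lost without any 1 of 6 (adjusted p 0.0674 to 0.155), at -2.03 to -1.72. In Thpok-RKF- CD4+CD8+ against WT CD8 SP cells (-2.00 ± 0.58, adjusted p = 0.0367) it held only without WT CD8 SP replicate 1 (adjusted p 0.0482 to 0.132 over the 6 fits). In Thpok-RKF+ against Thpok-RKF- CD8 SP cells it was lost without Thpok-RKF- CD8 SP replicate 2 or 3 or Thpok-RKF+ replicate 3 (adjusted p = 0.108, 0.0647 and 0.0674). Against WT CD4 SP cells, Eomes differed by 1.70 ± 0.59 in Thpok-RKF+ cells and by 1.59 ± 0.59 in Thpok-RKF- CD4+CD8+ cells (adjusted p = 0.106 and 0.0757). Without WT CD4 SP replicate 1 these were 3.00 and 2.88 (adjusted p = 0.0024 and 0.00294).

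Targets of T-bet and Eomes were read as a list of 16 genes, 12 of them tested. In WT CD4 SP against WT CD8 SP cells 9 were lower and 1, Fasl, was higher, with a median log2 change of -2.70 against -0.03 over all genes tested. Among all genes tested 10.3% were lower there and 7.72% higher. Nkg7, a cytotoxic granule gene, was at -8.71 ± 0.45 there, and Cst7, the cystatin F gene, at -4.29 ± 0.17 (adjusted p = 1.55e-08 and 7.92e-10). In Thpok-RKF- CD8 SP against WT CD8 SP cells 7 were lower and 2 higher, where 10.6% and 7.78% of all genes tested were. The median there was -2.51 against 0.00. Ly6c2, a surface protein gene of effector and memory cells, was at -3.25 ± 0.23, and Prf1, the perforin gene, at 1.32 ± 0.15 (adjusted p = 3.86e-07 and 2.26e-05).

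Against WT CD4 SP cells most called targets were higher in the mutant groups: 5 rose and 0 fell in Thpok-RKF+ cells, 6 rose and 1 fell in Thpok-RKF- CD4+CD8+ cells, and 5 rose and 1 fell in Thpok-RKF- CD8 SP cells. The one that fell was Fasl, the Fas ligand gene, which averaged 3.46 ± 0.127 CPM in Thpok-RKF+ cells, 0.693 ± 0.655 in Thpok-RKF- CD4+CD8+ cells and 0.593 ± 0.342 in Thpok-RKF- CD8 SP cells, against 9.20 ± 2.95 in WT CD4 SP cells and 0.0433 ± 0.0403 in WT CD8 SP cells (SD, n = 3). Nkg7 had 121, 190.3 and 161 CPM in Thpok-RKF+ libraries, 140.5, 195 and 178 CPM in Thpok-RKF- CD4+CD8+ libraries and 236, 226 and 245 CPM in Thpok-RKF- CD8 SP libraries, against 1.26, 2.09 and 5.47 CPM in WT CD4 SP libraries. Every mutant library lay above every WT CD4 SP library. Prf1 rose by 2.99 ± 0.16, 2.90 ± 0.16 and 3.30 ± 0.16 in the same 3 groups (adjusted p = 1.51e-08, 2.62e-08 and 8.33e-09). Against WT CD4 SP cells 4.36% of all genes tested rose and 2.91% fell in Thpok-RKF+ cells. These shares were 9.15% and 8.42% in Thpok-RKF- CD4+CD8+ cells, and 8.91% and 8.75% in Thpok-RKF- CD8 SP cells.

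In Thpok-RKF+ over Thpok-RKF- CD4+CD8+ cells 2 of the 12 targets rose and 0 fell, where 0.586% and 0.375% of all genes tested did. Ly6c2 had 54.4, 50.9 and 42.7 CPM in Thpok-RKF+ libraries, against 19.9, 15.9 and 15.1 CPM in Thpok-RKF- CD4+CD8+ libraries, and rose by 1.54 ± 0.22 (adjusted p = 0.00305). Cst7 had 13.1, 14.7 and 13.7 CPM, against 8.14, 9.24 and 7.80 CPM in Thpok-RKF- CD4+CD8+ libraries, and rose by 0.72 ± 0.15 (adjusted p = 0.0344). Neither gene overlapped between these groups, nor did 16.4% of all genes tested. Cxcr3, a chemokine receptor gene that T-bet activates, had 3.91, 6.87 and 3.55 CPM in Thpok-RKF+ libraries, against 0.346, 0.355 and 0.755 CPM in Thpok-RKF- CD4+CD8+ libraries, and its change of 3.29 ± 1.13 did not pass (adjusted p = 0.206). The median log2 change of the 12 was 0.16, against 0.01 over all genes tested.

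**Figure D3:**
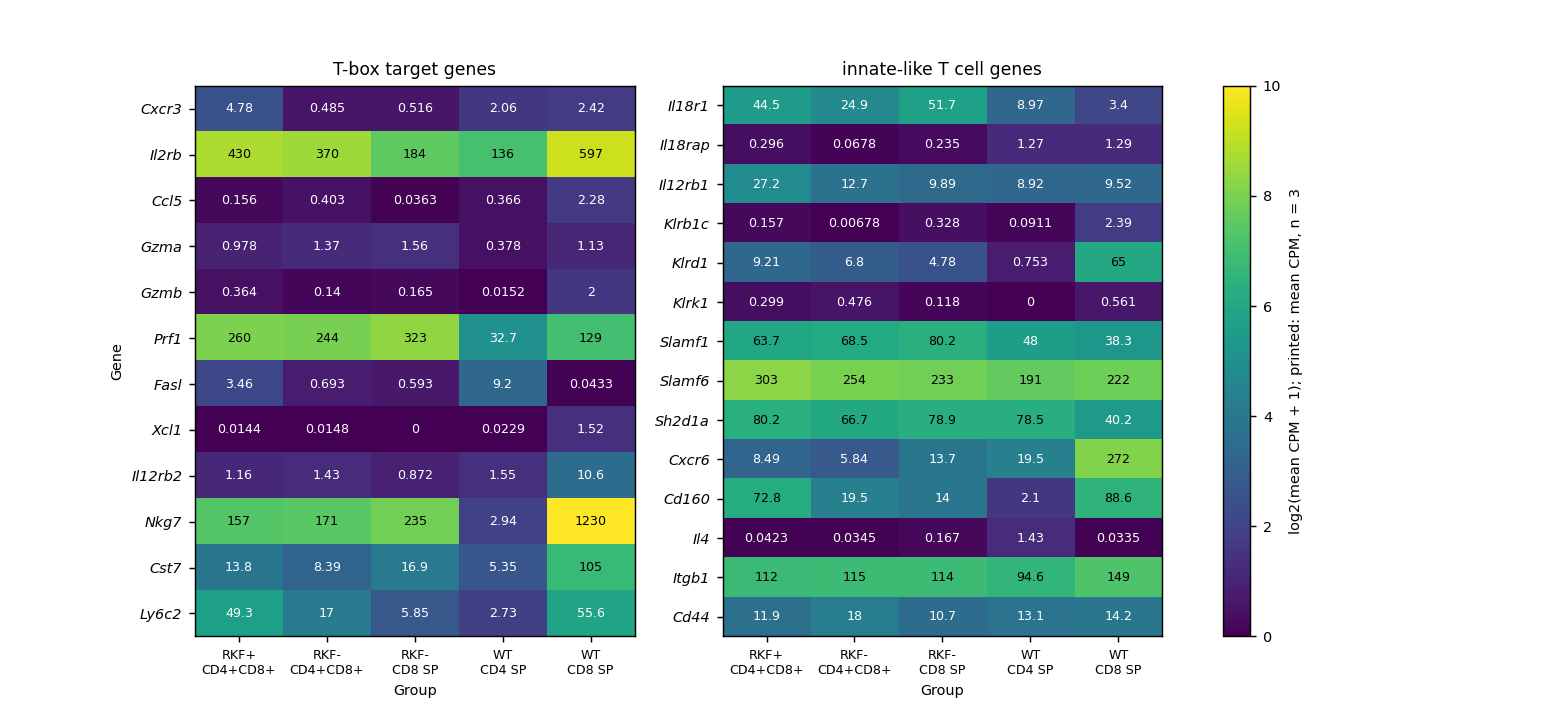
Mean CPM (printed, n = 3) of the tested T-box target genes and innate-like T cell genes in the 5 groups, with colour on a log2 scale of mean CPM plus 1. Cd160 stands at 72.8 CPM in Thpok-RKF+ cells, against 19.5 CPM in Thpok-RKF- CD4+CD8+ cells, and Nkg7 at 157 CPM in Thpok-RKF+ cells, against 2.94 CPM in WT CD4 SP cells.

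Zbtb16 and Maf were the least abundant of the 10, and the means of both were lowest in Thpok-RKF+ and WT CD8 SP cells. Zbtb16 had 0.296, 0.108 and 0 CPM in Thpok-RKF+ libraries, 0.0610, 1.49 and 1.11 CPM in Thpok-RKF- CD4+CD8+ libraries and 0.449, 1.71 and 1.03 CPM in Thpok-RKF- CD8 SP libraries. It had 1.87, 1.18 and 1.72 CPM in WT CD4 SP libraries and 0, 0.276 and 0 CPM in WT CD8 SP libraries. No library held more than 82 counts of it, and no comparison of 2 groups passed the edgeR test.

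Maf had 0.0846, 0.0432 and 0.0474 CPM in Thpok-RKF+ libraries (4, 2 and 2 counts), 0.102, 0.643 and 1.04 CPM in Thpok-RKF- CD4+CD8+ libraries and 0.135, 1.04 and 1.92 CPM in Thpok-RKF- CD8 SP libraries. It had 0.434, 2.11 and 1.14 CPM in WT CD4 SP libraries and 0.239, 0.10 and 0 CPM in WT CD8 SP libraries. The Thpok-RKF+ libraries lay below all Thpok-RKF- and WT CD4 SP libraries and overlapped the WT CD8 SP libraries. The gap to the Thpok-RKF- libraries was smallest between replicates 1, and there it was within counting error. Replicate 1 held 4 counts in Thpok-RKF+, 5 in Thpok-RKF- CD4+CD8+ and 6 in Thpok-RKF- CD8 SP cells. Replicates 2 and 3 held 2 and 2, 29 and 47, and 48 and 86 counts in these groups.

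Maf was lower in Thpok-RKF+ than in WT CD4 SP cells (-4.33 ± 1.24, adjusted p = 0.0487). This call was lost without WT CD4 SP replicate 2 or 3 or Thpok-RKF+ replicate 1, 2 or 3 (adjusted p = 0.12, 0.0862, 0.106, 0.111 and 0.142). In Thpok-RKF+ over Thpok-RKF- CD4+CD8+ cells the difference was -3.28 ± 1.21 for Maf and -2.68 ± 1.33 for Zbtb16 (adjusted p = 0.232 and 0.373). Without the libraries numbered 1, Maf passed there as lower (-4.14, adjusted p = 0.04). In WT CD4 SP over WT CD8 SP cells it was 3.43 ± 1.18 for Maf and 4.07 ± 1.42 for Zbtb16 (adjusted p = 0.0584 and 0.0622), and DESeq2 gave adjusted p of 0.0146 and 0.0123. Once the libraries numbered 1 were removed, Maf passed as higher in WT CD4 SP cells (5.0 log2 units, adjusted p = 0.0128), and without WT CD8 SP replicate 1 alone it was 4.60 (adjusted p = 0.0564). Without WT CD8 SP replicate 2, which held the only Zbtb16 counts of its group, edgeR called Zbtb16 higher than WT CD8 SP in WT CD4 SP, Thpok-RKF- CD8 SP and Thpok-RKF- CD4+CD8+ cells (adjusted p = 0.017, 0.0205 and 0.0371). Without Thpok-RKF- CD8 SP replicate 1, Maf passed in Thpok-RKF- CD8 SP over WT CD8 SP cells (3.70, adjusted p = 0.0466) and in Thpok-RKF+ over Thpok-RKF- CD8 SP cells (-4.59, adjusted p = 0.043).

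Markers of NKT and regulatory T cells moved across the groups too. The 7 NKT markers summed to 512 to 577 CPM in Thpok-RKF+ libraries, 421 to 554 in Thpok-RKF- CD4+CD8+ libraries and 306 to 354 in Thpok-RKF- CD8 SP libraries, against 184 to 256 in WT CD4 SP and 853 to 953 in WT CD8 SP libraries. Of the 7, 5 are also in the innate-like list and 2 in the T-box list used here. The markers did not move together. In WT CD4 SP against WT CD8 SP cells Il18r1 and Il4 were higher by edgeR, while Il2rb, Cxcr6 and Klrb1c were lower. In each mutant group against WT CD8 SP cells Il18r1 and Slamf1 were higher and Cxcr6 was lower. The sum was highest in WT CD8 SP cells, where the mean of Zbtb16 was lowest. Ifng had no counts in the 3 mutant groups, and Il4, a cytokine that NKT cells make, averaged 1.43 CPM in WT CD4 SP cells and at most 0.167 CPM in any other group. The 8 regulatory T cell markers summed to 259.9 to 302 CPM in Thpok-RKF+ libraries, 306 to 422 in Thpok-RKF- CD4+CD8+ libraries and 160.0 to 237 in Thpok-RKF- CD8 SP libraries, against 371 to 472 in WT CD4 SP and 151 to 179 in WT CD8 SP libraries. These 8 did not all move together either. By edgeR, Ikzf2 was lower and the other 7 higher in WT CD4 SP than in WT CD8 SP cells. Tnfrsf18 was higher, and Foxp3 and Gpr83 lower, in Thpok-RKF+ than in Thpok-RKF- CD4+CD8+ cells. Il2ra, Ctla4 and Gpr83 were higher, and Ikzf2 and Lrrc32 lower, in Thpok-RKF- CD8 SP than in WT CD8 SP cells. The part of NKT and regulatory T cells in the Zbtb16 and Maf values was not tested.

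Of 15 genes typical of innate-like T cells, 14 were tested, and in Thpok-RKF+ over Thpok-RKF- CD4+CD8+ cells 1 rose and 0 fell. It was Cd160, a receptor of innate-like and cytotoxic cells, with 62.7, 81.7 and 73.9 CPM in Thpok-RKF+ libraries, against 14.7, 18.9 and 24.8 CPM in Thpok-RKF- CD4+CD8+ libraries (1.90 ± 0.31, adjusted p = 0.0098). The groups did not overlap, nor did they for 16.4% of all genes tested. There 0.586% of all genes tested rose and 0.375% fell. In Thpok-RKF- CD8 SP over WT CD8 SP cells 3 rose and 4 fell: the interleukin-18 receptor gene Il18r1 rose by 3.93 ± 0.34, and the chemokine receptor gene Cxcr6 was at -4.31 ± 0.41 (adjusted p = 1.85e-06 and 4.11e-06). Against WT CD4 SP cells 6 rose and 0 fell in Thpok-RKF+ cells, 6 rose and 2 fell in Thpok-RKF- CD4+CD8+ cells, and 5 rose and 0 fell in Thpok-RKF- CD8 SP cells. In these 3 groups 4.36%, 9.15% and 8.91% of all genes tested rose over WT CD4 SP cells, and 2.91%, 8.42% and 8.75% fell. In Thpok-RKF- CD8 SP over WT CD8 SP cells 7.78% rose and 10.6% fell.

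Of 10 genes that act with Maf or respond to it, 9 were tested. In Thpok-RKF+ over WT CD4 SP cells 1 rose and 2 fell: Bach2, a repressor of effector programmes, rose by 0.57 ± 0.15, while the costimulator gene Icos was at -0.89 ± 0.13 and the inhibitory receptor gene Pdcd1 at -1.16 ± 0.32 (adjusted p = 0.035, 0.000541 and 0.0405). In Thpok-RKF+ over WT CD4 SP cells 4.36% of all genes tested rose and 2.91% fell. Icos and Pdcd1 were also lower in Thpok-RKF- CD8 SP than in WT CD8 SP cells (-0.59 ± 0.13 and -1.91 ± 0.33, adjusted p = 0.00497 and 0.000773). Il21, a cytokine gene that Maf activates in helper cells, had 2.24, 2.26 and 2.10 CPM in WT CD4 SP libraries and no counts in any other library but Thpok-RKF+ replicate 2, at 0.324 CPM.

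Rora had 26.6, 26.4 and 29.3 CPM in Thpok-RKF+ libraries, 29.5, 28.4 and 31.3 CPM in Thpok-RKF- CD4+CD8+ libraries and 65.1, 61.9 and 57.6 CPM in Thpok-RKF- CD8 SP libraries. It had 11.0, 7.62 and 7.45 CPM in WT CD4 SP libraries and 5.88, 10.7 and 13.7 CPM in WT CD8 SP libraries. The Thpok-RKF- CD8 SP libraries were the highest, both CD4+CD8+ groups overlapped below them, and both WT groups overlapped at the bottom.

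Rora rose in Thpok-RKF- CD8 SP cells by 2.61 ± 0.25 over WT CD8 SP cells and by 2.82 ± 0.25 over WT CD4 SP cells (adjusted p = 3.87e-06 and 2.98e-06). Thpok-RKF+ cells had rises of 1.44 ± 0.24 and 1.66 ± 0.24 over the same groups (adjusted p = 0.00105 and 0.000473). Thpok-RKF- CD4+CD8+ cells had 1.56 ± 0.24 and 1.77 ± 0.24 (adjusted p = 0.000628 and 0.000268). These 6 calls held with any 1 library left out and under every other alternative run.

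Within the mutant cells, Rora was lower in Thpok-RKF+ than in Thpok-RKF- CD8 SP cells (-1.17 ± 0.23, adjusted p = 0.00782) and lower in Thpok-RKF- CD4+CD8+ than in Thpok-RKF- CD8 SP cells (-1.05 ± 0.23, adjusted p = 0.0263). The second call was lost without any 1 of its 6 libraries (adjusted p 0.0735 to 0.111), and the first held in each such fit. Rora in Thpok-RKF+ cells differed from that in Thpok-RKF- CD4+CD8+ cells by -0.12 ± 0.23 (adjusted p = 0.873), and WT CD4 SP from WT CD8 SP cells by -0.21 ± 0.24 (adjusted p = 0.608).

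The 8 markers of immature double-positive thymocytes summed to 197 to 237 CPM in Thpok-RKF+ libraries, 155 to 179.7 in Thpok-RKF- CD4+CD8+ libraries and 298 to 345 in Thpok-RKF- CD8 SP libraries, against 194 to 252 in WT CD4 SP and 104 to 128 in WT CD8 SP libraries. One of them, Dntt, which encodes terminal transferase, averaged 30.1 ± 8.25, 43.1 ± 11.5 and 164 ± 49.6 CPM in Thpok-RKF+, Thpok-RKF- CD4+CD8+ and Thpok-RKF- CD8 SP cells, against 17.8 ± 4.19 CPM in WT CD4 SP and 15.2 ± 2.93 CPM in WT CD8 SP cells (SD, n = 3). The 8 markers did not move together. By edgeR, Dntt was higher and Mns1 lower in each mutant group than in WT CD8 SP cells. Cd1d1 was higher in Thpok-RKF+ and Thpok-RKF- CD8 SP than in WT CD8 SP cells. It was lower in Thpok-RKF- CD4+CD8+ than in WT CD4 SP cells, where Dntt was higher. None of the 8 was at 0 in all libraries of a group, and the part of such cells in the Rora levels was not tested.

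Of 12 genes of type 17 cells and of the circadian circuit that Ror factors act in, 7 were tested. Arntl, a clock activator gene that Ror factors bind, had 60.1, 66.1 and 64.9 CPM in Thpok-RKF+ libraries, 70.2, 52.4 and 66.1 CPM in Thpok-RKF- CD4+CD8+ libraries and 87.8, 97.2 and 100.3 CPM in Thpok-RKF- CD8 SP libraries. It had 55.6, 45.6 and 59.5 CPM in WT CD4 SP libraries and 47.4, 44.7 and 55.2 CPM in WT CD8 SP libraries, and the Thpok-RKF- CD8 SP libraries lay above all others. Arntl rose in Thpok-RKF- CD8 SP cells by 0.95 ± 0.14 over WT CD8 SP and by 0.83 ± 0.14 over WT CD4 SP cells (adjusted p = 0.000212 and 0.000923). Nr1d2, a clock repressor gene, rose there by 1.26 ± 0.29 and 1.40 ± 0.30 (adjusted p = 0.00734 and 0.00495); these were the 2 of 7 that rose in each comparison, with 0 that fell. Both were lower in Thpok-RKF- CD4+CD8+ than in Thpok-RKF- CD8 SP cells (-0.60 ± 0.14 and -1.18 ± 0.29, adjusted p = 0.0334 and 0.0495). In Thpok-RKF- CD8 SP cells 7.78% of all genes tested rose over WT CD8 SP cells and 8.91% over WT CD4 SP cells. The shares that fell were 10.6% and 8.75%.

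Ahr had 4.02, 1.12 and 1.94 CPM in Thpok-RKF+ libraries, 3.58, 2.79 and 4.71 CPM in Thpok-RKF- CD4+CD8+ libraries and 1.24, 1.17 and 1.49 CPM in Thpok-RKF- CD8 SP libraries. It had 1.71, 1.51 and 2.38 CPM in WT CD4 SP libraries and 6.22, 8.28 and 10.1 CPM in WT CD8 SP libraries. No library of another group reached the lowest WT CD8 SP library, and Thpok-RKF+ replicate 1 lay above the other replicates of its group.

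Ahr was lower than in WT CD8 SP cells in Thpok-RKF- CD8 SP cells (-2.66 ± 0.42, adjusted p = 0.00041) and in WT CD4 SP cells (-2.13 ± 0.41, adjusted p = 0.00239). It was also lower in Thpok-RKF+ than in WT CD8 SP cells (-1.79 ± 0.41, adjusted p = 0.00978), a call lost without WT CD8 SP replicate 3 or Thpok-RKF+ replicate 3 (adjusted p = 0.0528 and 0.0547). In Thpok-RKF- CD4+CD8+ against Thpok-RKF- CD8 SP cells the difference was 1.51 ± 0.41 (edgeR adjusted p = 0.0803, DESeq2 0.014). Ahr in Thpok-RKF+ cells differed from that in Thpok-RKF- CD4+CD8+ cells by -0.64 ± 0.40 (adjusted p = 0.482), and by -1.26 without Thpok-RKF+ replicate 1, the library with the highest myeloid markers (adjusted p = 0.0455); the part of myeloid cells in it was not tested. Against WT CD8 SP cells Ahr in Thpok-RKF- CD4+CD8+ cells was at -1.15 ± 0.40 (edgeR adjusted p = 0.0775, DESeq2 0.0441).

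Of 9 genes for partners and targets of Ahr, 7 were tested. Hsp90ab1, a chaperone that holds the receptor in the cytosol, was lower in Thpok-RKF- CD8 SP than in WT CD8 SP cells (-0.68 ± 0.08, adjusted p = 3.47e-05), and Tiparp, a target that restrains the receptor, was higher (0.57 ± 0.17, adjusted p = 0.0269). Hsp90ab1 was also the 1 of 7 that changed in WT CD4 SP against WT CD8 SP cells (-0.80 ± 0.08, adjusted p = 1.09e-05). There 18% of all genes tested changed. Cyp1a1, the classic induced gene of the receptor, was at 0 in every Thpok-RKF- CD4+CD8+ and WT CD8 SP library and in most others.

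Prdm1 had 7.72, 5.59 and 8.10 CPM in Thpok-RKF+ libraries, 3.83, 7.05 and 3.55 CPM in Thpok-RKF- CD4+CD8+ libraries and 8.94, 7.20 and 4.55 CPM in Thpok-RKF- CD8 SP libraries. It had 11.7, 6.93 and 4.07 CPM in WT CD4 SP libraries and 0.558, 0 and 0.909 CPM in WT CD8 SP libraries (21, 0 and 39 counts). The 4 groups other than WT CD8 SP overlapped one another and lay above it without overlap.

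Over WT CD8 SP cells, Prdm1 rose by 3.80 ± 0.75 in Thpok-RKF- CD8 SP cells (adjusted p = 0.00227) and by 3.94 ± 0.75 in WT CD4 SP cells (adjusted p = 0.00226). It rose by 3.85 ± 0.75 in Thpok-RKF+ cells (adjusted p = 0.00352) and by 3.28 ± 0.74 in Thpok-RKF- CD4+CD8+ cells (adjusted p = 0.00916). Without WT CD8 SP replicate 3 these 4 were 4.65, 4.79, 4.70 and 4.12, and each was still called. Thpok-RKF- CD4+CD8+ cells differed from Thpok-RKF- CD8 SP cells by -0.52 ± 0.65 (adjusted p = 0.91).

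Bcl6 had 19.0, 23.1 and 24.3 CPM in Thpok-RKF+ libraries, 28.4, 26.3 and 28.0 CPM in Thpok-RKF- CD4+CD8+ libraries and 25.9, 22.0 and 19.6 CPM in Thpok-RKF- CD8 SP libraries. It had 14.9, 28.9 and 13.4 CPM in WT CD4 SP libraries and 9.04, 15.4 and 13.8 CPM in WT CD8 SP libraries. All mutant libraries lay above all WT CD8 SP libraries, and WT CD4 SP replicate 2 lay above every other library.

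Bcl6 was higher in Thpok-RKF- CD4+CD8+ than in WT CD8 SP cells (1.11 ± 0.27, adjusted p = 0.0131), a call lost without WT CD8 SP replicate 1 (0.93, adjusted p = 0.0508). It was higher in Thpok-RKF- CD8 SP than in WT CD8 SP cells (0.82 ± 0.27, adjusted p = 0.0446), a call lost without WT CD8 SP replicate 1 or 3 or Thpok-RKF- CD8 SP replicate 1, 2 or 3 (adjusted p = 0.152, 0.0856, 0.141, 0.0929 and 0.0572). Against WT CD8 SP cells Bcl6 in Thpok-RKF+ cells was at 0.80 ± 0.27 (edgeR adjusted p = 0.071, DESeq2 0.0222). In Thpok-RKF- CD4+CD8+ against WT CD4 SP cells it differed by 0.53 ± 0.26 (adjusted p = 0.178), and by 0.95 without WT CD4 SP replicate 2 (adjusted p = 0.0127).

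Of 13 genes for partners of Bcl6 or linked to the follicular helper programme, 11 were tested. Not every listed gene is raised in follicular helper cells, so a rise here is no measure of that programme. In Thpok-RKF+ over Thpok-RKF- CD4+CD8+ cells 1 rose and 0 fell: Gpr183, an oxysterol receptor that positions helper cells, had 89.5, 95.6 and 93.6 CPM in Thpok-RKF+ libraries, against 47.7, 61.8 and 48.7 CPM in Thpok-RKF- CD4+CD8+ libraries (0.82 ± 0.15, adjusted p = 0.0171). It averaged 39.4 ± 5.48 CPM in Thpok-RKF- CD8 SP cells, 159 ± 29.4 CPM in WT CD4 SP cells and 31.6 ± 1.69 CPM in WT CD8 SP cells (SD, n = 3). In Thpok-RKF+ over Thpok-RKF- CD4+CD8+ cells 0.586% of all genes tested rose and 0.375% fell. In Thpok-RKF- CD4+CD8+ over Thpok-RKF- CD8 SP cells 3 rose and 0 fell, where 1.72% and 0.719% of all genes tested did. Klf2, a factor of thymic exit, rose by 0.94 ± 0.12, the cytokine receptor chain gene Il6st by 0.53 ± 0.12 and the egress receptor gene S1pr1 by 0.57 ± 0.13 (adjusted p = 0.000347, 0.0246 and 0.0248).

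The change that goes with CD4 was compared between mutant and WT cells, as Thpok-RKF- CD4+CD8+ minus Thpok-RKF- CD8 SP cells and WT CD4 SP minus WT CD8 SP cells. The mutant difference minus the WT difference passed for 4 of the 10 regulators, against 14.3% of all genes tested; 3 were higher, where 8.47% of all genes were, and 1 was lower, where 5.79% were. Id2 and Eomes were higher in the CD4+CD8+ cells of the mutant pair and lower in the CD4 SP cells of the WT pair, with 2.25 ± 0.23 for Id2 (adjusted p = 1.69e-05) and 6.10 ± 0.87 for Eomes (adjusted p = 0.000318). Ahr, which passed in the WT pair alone, had 3.64 ± 0.58 (adjusted p = 0.000747), and Prdm1, which also passed in the WT pair alone, had -4.46 ± 0.98 (adjusted p = 0.00754).

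These 4 calls held with any 1 library left out, and that of Prdm1 was lost without all 5 libraries numbered 1 (-3.75, adjusted p = 0.1). Eomes was at 7.38 without WT CD4 SP replicate 1, and Prdm1 at -5.31 without WT CD8 SP replicate 3. Genotype, host and gate differ at once between the pairs and cannot be told apart. Id3 had 1.40 ± 0.57 (adjusted p = 0.125), and 1.42 without the libraries numbered 1 (adjusted p = 7.67e-05). Rora had -0.83 ± 0.33 (adjusted p = 0.114), and -1.14 without WT CD8 SP replicate 3 (adjusted p = 0.0341). Zbtb16 had -4.33 ± 1.84 (adjusted p = 0.14), and an adjusted p of 0.0282 without WT CD8 SP replicate 2, with the rest of that group at 0.

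**Figure D4:**
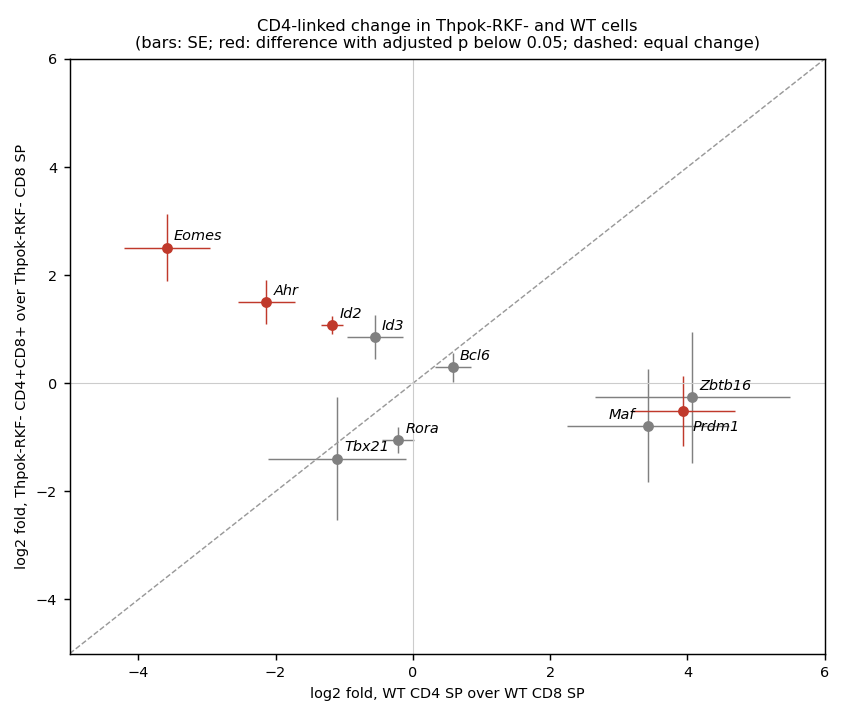
Log2 fold change of each regulator in Thpok-RKF- CD4+CD8+ over Thpok-RKF- CD8 SP cells (vertical) against that in WT CD4 SP over WT CD8 SP cells (horizontal), with bars of 1 SE and a dashed line of equal change, red where the difference between both passed. Eomes, Ahr and Id2 lie in the upper left in red, beside Id3 in grey, and Prdm1 lies at 3.94 on the horizontal and -0.52 on the vertical axis.

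The difference that goes with Thpok-RKF was set against the WT pair likewise, as Thpok-RKF+ minus Thpok-RKF- CD4+CD8+ cells and WT CD4 SP minus WT CD8 SP cells. The first minus the second passed for 6 of the 10 regulators, against 7.48% of all genes tested; 3 were higher, where 4.47% of all genes were, and 3 were lower, where 3.01% were. It was 1.26 ± 0.23 for Id2, 3.70 ± 0.83 for Eomes and 6.23 ± 1.56 for Tbx21 (adjusted p = 0.00314, 0.0125 and 0.0249). It was -6.71 ± 1.69 for Maf, -3.37 ± 0.97 for Prdm1 and -6.75 ± 1.95 for Zbtb16 (adjusted p = 0.025, 0.0491 and 0.0492). Within the mutant pair none of these 6 passed. Id2, Eomes and Prdm1 were at 0.08, 0.11 and 0.57 in the mutant pair, against -1.18, -3.59 and 3.94 in the WT pair. Tbx21, Maf and Zbtb16 were at 5.12, -3.28 and -2.68 in the mutant pair, against -1.11, 3.43 and 4.07 in the WT pair. Genotype, host and gate differ between these pairs too and cannot be told apart. Without WT CD4 SP replicate 1 Eomes was at 4.98.

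The calls of Id2 and Eomes held with any 1 library left out, and the other 4 did not. Over these 12 fits the adjusted p of Zbtb16 ran from 0.0138 to 0.108, and its call held only without WT CD8 SP replicate 2, Thpok-RKF- CD4+CD8+ replicate 1 or Thpok-RKF+ replicate 1. For Prdm1 it ran from 0.0217 to 0.119, and the call held only without WT CD4 SP replicate 3 or WT CD8 SP replicate 2 or 3. For Maf it ran from 0.0179 to 0.069, and the call was lost without WT CD4 SP replicate 2, WT CD8 SP replicate 2, Thpok-RKF- CD4+CD8+ replicate 3 or Thpok-RKF+ replicate 2 or 3. For Tbx21 it ran from 0.00191 to 0.0662, and the call was lost without WT CD4 SP replicate 1, WT CD8 SP replicate 2 or 3 or Thpok-RKF+ replicate 3. Ahr had 1.49 ± 0.56 (adjusted p = 0.142), and 1.81 without Thpok-RKF+ replicate 2 (adjusted p = 0.0471).

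Per kilobase of exon, the mean level over the 15 libraries was highest for Id3 and Id2, at 135 and 53.5 CPM per kilobase, and lowest for Zbtb16 and Maf, at 0.142 and 0.0735. The other 6 lay between 0.565 for Ahr and 3.10 for Bcl6. Exon lengths were those of GENCODE vM21, which may not be the annotation of the counts. Among the 10 genes, log2 levels over the 15 libraries were most alike for Id2 and Eomes (r = 0.85), Zbtb16 and Maf (r = 0.81) and Eomes and Ahr (r = 0.76). The most opposed were Id3 and Rora (r = -0.84) and Ahr and Prdm1 (r = -0.74). These values describe libraries that share 5 groups and the split by library number.

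Other genes most like each regulator were named by Pearson's r of log2 levels over the 15 libraries, among 8308 genes searched. Id2 was most like Reck (0.92), Trpm1 (0.92) and Cnn2 (0.90), and Id3 most like Acot7 (0.96), Nucb1 (0.96) and Pebp1 (0.95). Tbx21 was most like Smpd5 (0.89), Lrmp (0.89) and Thyn1 (0.89), and Eomes most like Agpat3 (0.92), Ect2 (0.91) and Rgs3 (0.91). Zbtb16 was most like Adi1 (0.85), Lzts1 (0.84) and Arpc1a (0.83), and Maf most like Atxn7l3b (0.81), Ccng1 (0.81) and Klhl8 (0.80). Rora was most like Tab1 (0.97) and Patj (0.95), and Ahr most like Eif2s3x (0.95), Cdc45 (0.93) and Ipo5 (0.92). Bcl6 was most like Mcu (0.91), Cand2 (0.89) and Slfn5 (0.86), and Prdm1 most like Lysmd3 (0.93), Zfp219 (0.89) and Zfp467 (0.87).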

How the data were processed

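RNA was extracted with the RNeasy Plus Micro kit, and SMARTer Ultra Low Input libraries were sequenced on a NovaSeq in 101 bp pairs, per the labels' protocols. Per the submitters' processing notes, which give no roles, STAR, HTSeq, Trimmomatic, bcl2fastq 2.17 and DESeq2 were used with mm39. The sources used here do not give the annotation or the strand setting. Genes on the opposite strand overlap Eomes, Ahr, Maf, Rora and Bcl6 in GENCODE vM21 and had 0 to 48 counts in all libraries together.

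The authors deposited raw counts per gene, once per library and once as a table of all libraries, and both were identical for 15 of 15 libraries. They also deposited normalised values called FPM, which are CPM: scaled back by each library's gene total they equalled the counts in 100% of cases, within 0.01, and they were not used further. The table of all libraries held 3 further columns that match no label and were not used. The 5 summary lines of each library that name no gene held 15.9% to 21.0% of its counted reads and were left out. Replicates of a group differed by more than sampling noise in every pair.

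Counts were tested with edgeR 4.0.16 (R 4.3.3): TMM normalisation, a filter of minimum count 10 and minimum total 15, all 15 libraries in 1 model of 5 group means, the quasi-likelihood F test and Benjamini-Hochberg adjustment over 16550 genes. SE is the log2 fold change over the square root of F. The fit was tested on simulated data first. Alternatives were DESeq2 1.42.0, limma-trend 3.58.1 on log2 of CPM plus 1 (and, for the 10 genes, plus 0.1), relative log expression size factors, no filter and a stricter one (100 counts in all and 1 CPM in 3 libraries), only the compared groups, a replicate block, a term for the libraries numbered 1, their removal, a 2-fold change as a further requirement, and each library left out in turn. A library at 0 counts was given a limit of 3 counts; limits cover counting error only.

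The 10 genes and the other lists were chosen with earlier results of these data known. Named were the 10, from each other list up to 4 genes by smallest adjusted p in a comparison, up to 3 genes most like each of the 10 by Pearson's r (prior count 2, mean log2 CPM of at least 3), and Zbtb7b, Runx3, Cd4, Cd8a, Jun and Lyz2. Fasl, Il4, Ifng, Cyp1a1, Dntt, Il21 and markers at 0 were also named, after their values were seen. Some values that fall under these rules are not reported here.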

Additional observations from a re-analysis of the deposited data

Results flagged for a closer look

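For 4 of the 10 regulators the change that goes with CD4 differed between mutant and WT cells by a test of the difference itself in the edgeR model. Id2 stood at 2.25 on the log2 scale for the mutant pair minus the WT pair: Thpok-RKF- CD4+CD8+ minus Thpok-RKF- CD8 SP cells was positive, and WT CD4 SP minus WT CD8 SP cells was negative. Eomes stood at 6.10 and Ahr at 3.64 with the same arrangement of signs. The mutant difference of Ahr did not pass on its own (1.51, edgeR adjusted p = 0.0803). That of Eomes passed (2.51, edgeR adjusted p = 0.0453), but the call was lost with any 1 of its libraries left out. Prdm1 stood at -4.46, with a mutant difference of -0.52 and a WT difference of 3.94.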

How the results depend on the processing

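Of 89 log2 fold changes examined, 49 were called; 29 of these were called in every fit, 32 in every fit with 1 library left out, 36 under every other alternative, and 0 reversed. The reversals were among uncalled values when 1 library was left out: Rora in WT CD4 SP over WT CD8 SP cells ran from -0.45 to 0.087, Tbx21 in Thpok-RKF+ over WT CD8 SP cells from -0.0054 to 0.78, and in Thpok-RKF+ over Thpok-RKF- CD4+CD8+ cells Id2 ran from -0.0071 to 0.16, Id3 from -0.45 to 0.10 and Eomes from -0.022 to 0.28. The cause was not tested. Counts of regulators called moved as follows. Thpok-RKF+ cells against the Thpok-RKF- CD4+CD8+ cells gave 1 with no filter, 1 with the stricter filter, 1 by DESeq2, 1 by limma-trend and 2 without the libraries numbered 1. Without these libraries, the WT pair gave 7, both gates of Thpok-RKF- cells 5 and Thpok-RKF+ against Thpok-RKF- CD8 SP cells 6, which gave 5 with no filter and 5 by DESeq2. With 1 library left out, counts ran from 4 to 5 for the WT pair, 0 to 2 for Thpok-RKF+ against the Thpok-RKF- CD4+CD8+ cells, 1 in each fit for both gates of Thpok-RKF- cells, and 2 to 4 for Thpok-RKF+ against Thpok-RKF- CD8 SP cells. With WT CD8 SP cells as control they ran from 6 to 8 (Thpok-RKF- CD8 SP), 4 to 5 (Thpok-RKF- CD4+CD8+) and 3 to 4 (Thpok-RKF+). With WT CD4 SP cells they were 2 in each fit (Thpok-RKF- CD8 SP) and 3 to 5 for each CD4+CD8+ group. The difference of differences gave 4 to 5 for the change that goes with CD4 and 2 to 5 for Thpok-RKF. Whether replicate numbers pair the samples is not stated, and the main fit used no pairing. Deviations from the group means correlated by 0.11, 0.0060 and 0.042 on average within numbers 1, 2 and 3, against -0.026 across different numbers. Within number 1 the correlations ran from -0.014 to 0.22. With the replicate block, the difference of differences for Thpok-RKF called 3 regulators rather than 6. Calls that ended under an alternative other than a left-out library were Maf in Thpok-RKF+ against WT CD4 SP cells (the replicate block, the term for number 1 and limma-trend), Tbx21 in Thpok-RKF- CD4+CD8+ against WT CD4 SP cells (the block, that term and only the compared groups), and Eomes (the block and relative log expression) and Ahr (only the compared groups) in Thpok-RKF+ against WT CD8 SP cells. Eomes between both gates of Thpok-RKF- cells ended under the block, and Bcl6 in both Thpok-RKF- groups against WT CD8 SP cells without the libraries numbered 1. Requiring a 2-fold change ended Id2 in both CD4+CD8+ groups against WT CD4 SP cells and Bcl6 in Thpok-RKF- CD8 SP against WT CD8 SP cells. In the difference of differences for Thpok-RKF, Maf ended under the block, the term and limma-trend, Zbtb16 under the block, the term and only the compared groups, and Prdm1 under the block, only the compared groups and without the libraries numbered 1, which also ended Prdm1 in the change that goes with CD4.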

Other observations

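Other fate factors of T cells were read as a list of 26 genes. In Thpok-RKF- CD4+CD8+ over Thpok-RKF- CD8 SP cells 8 were higher and 0 lower by edgeR, where 1.72% and 0.719% of all genes tested were. The early growth response genes Egr1 and Egr2, which T cell receptor signals induce, were higher by 1.59 ± 0.18 and 1.68 ± 0.22 on the log2 scale (SE; edgeR adjusted p = 0.000113 and 0.000518). Foxp3, the defining factor of regulatory T cells, was higher by 3.49 ± 0.36 and Ikzf2, the gene of Helios, by 3.14 ± 0.44 (adjusted p = 6.05e-05 and 0.000806).

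Thpok-RKF+ over Thpok-RKF- CD4+CD8+ cells had 2 genes of the list higher, Zbtb7b and Nr4a1, and 1 lower, Foxp3. Among all genes tested 0.586% were higher, 0.375% were lower and 16.4% did not overlap between these groups. Foxp3 had 8.57, 8.88 and 8.95 CPM in Thpok-RKF+ libraries, against 50.1, 24.0 and 22.4 CPM in Thpok-RKF- CD4+CD8+ libraries (-1.87 ± 0.33, adjusted p = 0.0147), and the groups did not overlap. Nr4a1, an immediate target of T cell receptor signals, had 198, 425 and 378 CPM in Thpok-RKF+ libraries, against 184, 107 and 107 CPM in Thpok-RKF- CD4+CD8+ libraries (1.33 ± 0.29, adjusted p = 0.0476).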
